A study of Mus musculus with 2 samples.

Results

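The Zic genes Zic1, Zic2, Zic4 and Zic5 were followed through every probe set whose only gene symbol in the array annotation is one of these names, which gave 8 of 45101 probe sets and 4 of 18194 named genes. Signals came from 2 single cells of CD1 mice, an albino outbred stock. One cell was picked from a dissociated retina of an embryo at day 12.5 (E12.5; the embryonic cell) and the other from a pup at postnatal day 0 (P0; the newborn cell). Both carry the tissue label retina and the cell type label ciliary body, the tissue at the rim of the eye cup that later secretes the aqueous humour. No genotype change or treatment is given for either. The submitters placed the cells there from gene expression after hybridisation, so Zic signals are no independent evidence of where the cells came from. Each age is 1 cell on 1 array with no replicate, so differences carry no p-value, and the number of arrays limits the precision.

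Zic proteins are C2H2 zinc finger transcription factors related to the Gli effectors of hedgehog signalling. They bind DNA, act as activators or repressors, and can join Gli or Tcf proteins on shared promoters. In the embryo they mark the dorsal neural tube, the neural crest and the midline forebrain, where loss of Zic2 causes holoprosencephaly, a failure of the forebrain to divide. In the eye, Zic genes are known from progenitors and the peripheral margin of the optic cup, and Zic2 also from the ganglion cells whose axons stay on the same side of the brain.

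A probe set was taken as above background when its MAS5 signal exceeded the array's limit, which was 257 in the embryonic cell and 349 in the newborn cell. The limit is the 99th percentile of 177 probe sets for gene families not expected in eye tissue, such as olfactory receptors and keratin-associated proteins. The hybridisation spike-ins, which are added to each array, had a median signal of 27903 in the E12.5 array and 48085 in the P0 array, and the 3' over 5' ratio of the actin control was 6.17 and 2.20, while that of the Gapdh control was 1.06 and 1.43. The part of these differences in the results was not tested. Of 16 ciliary margin markers, Zic genes left out, 7 were above background in the embryonic cell and 5 in the newborn cell, against 30.3% and 28.4% of all named genes. Msx1, Msx2, Bmp4, Mitf, Boc, Wls, Axin2 and Wnt2b were below it in both cells. Of 16 genes of the ciliary body and iris, 8 and 9 were above it. The cells were labelled from gene expression after hybridisation, so neither list is an independent check of the label. No photoreceptor marker (of 12) was above background in either cell. Of 12 ganglion cell markers, 1 was above it in each cell, and 2 in the embryonic cell when any probe set of a gene counts. Of 14 amacrine and horizontal cell markers, 4 were above it in each. Of 12 Müller glia markers, 4 were above it in the embryonic cell and 9 in the newborn cell, with 0 and 5 past 4-fold, against 7.30% and 9.24% of all named genes. When any probe set of a gene counts, 1 and 6 were past 4-fold. Rlbp1 was at least 62.7-fold and S100b at least 18.6-fold higher in the newborn cell. Glul was higher in the embryonic cell by its probe set 1426235_at (1887 and 109), and Vim had 29725 and 27525. The part of these markers in the Zic results was not tested.

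The Zic genes lie as close pairs in the mouse genome, and the pairs differed in whether both partners were above background. In the RefSeq annotation of assembly GRCm38.p6, Zic1 and Zic4 are direct neighbours on chromosome 9, while Zic5 and Zic2 are neighbours on chromosome 14 with the lncRNA gene 2610035F20Rik between them. RefSeq windows of 300 bases around the start site, 250 before and 50 after it, were found for 3 of the 4 genes, Zic1, Zic4 and Zic5. They are printed to show how the windows of the neighbours Zic1 and Zic4 differ in base composition. Any link of base composition to the signals was not tested. Capitals mark exact matches, on either strand, to the GC box GGGCGG or the CCAAT box CCAAT. Zic4 has further annotated transcripts, whose starts were not read. The Zic1 window is chr9:91365719-91366018 on the minus strand, the Zic4 window chr9:91368722-91369021 on the plus strand and the Zic5 window chr14:122465609-122465908 on the minus strand.
Zic1: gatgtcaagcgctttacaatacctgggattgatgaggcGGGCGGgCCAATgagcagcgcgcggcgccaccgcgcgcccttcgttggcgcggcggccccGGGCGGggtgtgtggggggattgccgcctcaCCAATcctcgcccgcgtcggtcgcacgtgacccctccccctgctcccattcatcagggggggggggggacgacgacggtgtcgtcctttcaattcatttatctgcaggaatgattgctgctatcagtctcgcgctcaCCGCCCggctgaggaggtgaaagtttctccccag
Zic4: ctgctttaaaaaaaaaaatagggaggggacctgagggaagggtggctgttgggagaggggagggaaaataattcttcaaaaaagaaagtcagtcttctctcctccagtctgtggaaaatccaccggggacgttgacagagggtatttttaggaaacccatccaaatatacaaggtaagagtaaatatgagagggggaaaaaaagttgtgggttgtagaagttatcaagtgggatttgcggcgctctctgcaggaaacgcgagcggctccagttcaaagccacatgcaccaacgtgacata
Zic5: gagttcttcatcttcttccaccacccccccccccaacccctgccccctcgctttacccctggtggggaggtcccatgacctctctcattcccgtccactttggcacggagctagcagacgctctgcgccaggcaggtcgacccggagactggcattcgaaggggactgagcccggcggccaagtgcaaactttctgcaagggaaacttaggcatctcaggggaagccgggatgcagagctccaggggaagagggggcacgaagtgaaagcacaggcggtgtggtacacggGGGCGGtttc

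The Zic1 window held 31 CpG dinucleotides and had a GC content of 65.3%, with 3 GC boxes and 2 CCAAT boxes. The window of its neighbour Zic4 held 8 CpG at 46.0% GC and neither motif. The Zic5 window held 15 CpG at 62.7% GC and 1 GC box. Over 32841 promoter windows of the same length, the median was 7 CpG and 52.7% GC, 35.7% held a GC box and 37.4% a CCAAT box. The TATA box TATAAA (13.6% of windows), the core CAGCAGG of the sequence bound by Zic proteins (10.5%) and the Gli site TGGGTGGTC (0.253%) had no exact match in the 3 windows on either strand. No motif overlapped another in them. A match is a description of the letters and shows no binding.

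Zic1, Zic2 and Zic5 were above background in both cells and Zic4 in neither. Of the 8 probe sets, 6 were above the limit in the embryonic cell and 4 in the newborn cell. On the same arrays 24.1% and 22.4% of the 34958 probe sets with 1 gene symbol were above it. The 4 above it in the newborn cell were also above it in the embryonic cell, against 13.9% of all such probe sets in both. In all, 6 of 8 had the higher signal in the embryonic cell, 3 of them probe sets of Zic5 and 1 a Zic4 probe set below background. Probe sets of 1 gene read the same cDNA, so this is no count of separate genes. The share over all probe sets was not counted. Over the 4866 above both limits, the median log2 ratio, newborn over embryonic, was -0.0014. None of the 8 reached a 4-fold difference between the cells with signals raised to the limit, against 12.9% of probe sets in either direction. With lower limits, a pseudocount or no limit, 1 of 8 did, a Zic5 probe set. The 2 Zic4 probe sets, below both limits, could not be called. In 2 Zic5 probe sets the embryonic signals, 573 and 787, could not reach 4-fold over the newborn limit of 349. The lack of calls was thus in part set by the rule and does not show that the Zic signals were stable. All 8 are of the plain _at type, so none is marked by the array's design as shared between transcripts or genes.

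**Figure D1:**
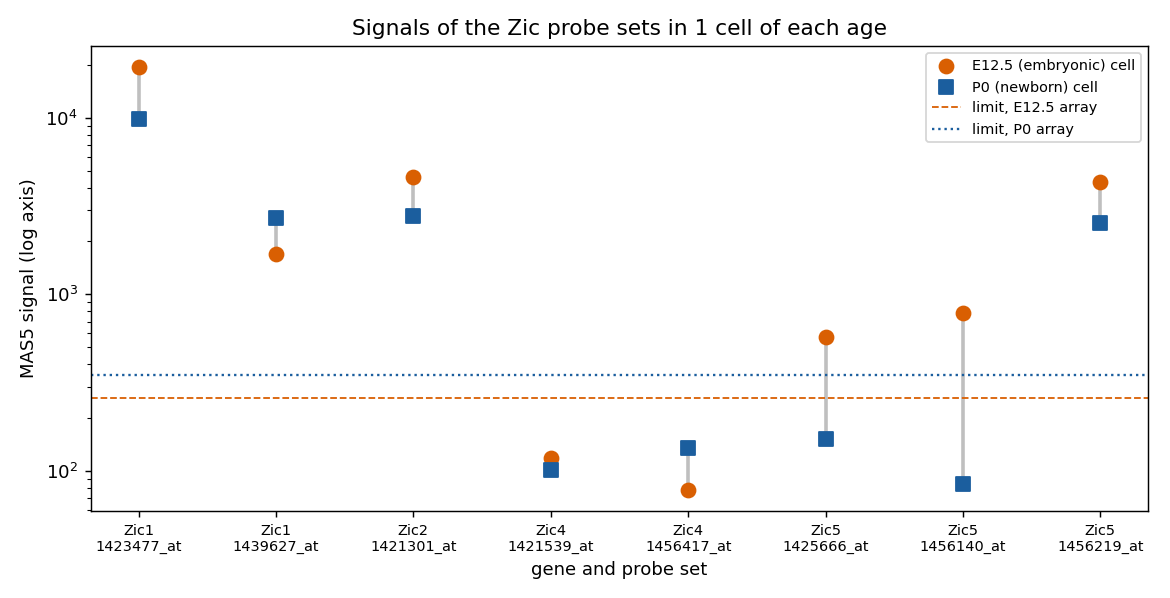
MAS5 signal (vertical log axis) of each of the 8 Zic probe sets (horizontal axis) in the embryonic cell (circles) and the newborn cell (squares), each point being 1 array, with the background limit of each array as a dashed or dotted line. Zic1, Zic2 and 1 Zic5 probe set lie above both limits in both cells, the other 2 Zic5 probe sets only in the embryonic cell, and both Zic4 probe sets below the limits.

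Zic1, which keeps neural precursors from differentiating early in the dorsal neural tube and cerebellum, had 2 probe sets, both above background in both cells, that disagreed on the direction. Probe set 1423477_at had a signal of 19476 in the embryonic cell and 9865 in the newborn cell. Both were far above the limits, at 75.7 and 28.3 times the limit, and the embryonic cell was the higher by 1.97-fold. The position of this probe set within its own array, which does not depend on scaling, was percentile 99.3 in the embryonic cell and 98.5 in the newborn cell.

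The second Zic1 probe set went the other way. Probe set 1439627_at had a signal of 1690 in the embryonic cell and 2710 in the newborn cell, 1.60-fold higher at P0, at percentiles 88.5 and 91.4. Its log2 ratio (newborn over embryonic, here and below) was 0.68, against -0.98 for the first, a gap of 1.66. Among the 659 genes with exactly 2 probe sets detected in both cells, the median gap was 0.48, 83.8% had a smaller gap than Zic1, and 21.7% had ratios of opposite sign. The pooled SD of the log2 ratio between probe sets of a gene was 0.83, so a change of Zic1 between the cells was not resolved in direction. This SD covers probe sets above both limits that read the same cDNA, so it holds no variation between cells. The mean of both probe sets gave a log2 ratio of -0.15, and scaling to the spike-ins turned the second to -0.10.

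Zic2, the holoprosencephaly gene, was also above background in both cells. Its single probe set 1421301_at had a signal of 4640 in the embryonic cell and 2787 in the newborn cell, both well above the limits. The embryonic cell was the higher by 1.66-fold, a log2 ratio of -0.74. That is smaller than the pooled SD of 0.83 between probe sets of a gene, which holds no variation between cells. With spike-in scaling the log2 ratio of Zic2 was -1.52. Percentiles within the arrays were 95.3 and 91.7. Zic2 has no other probe set to compare.

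Zic5, which lies beside Zic2 and is known for its part in neural crest and neural tube closure, had 3 probe sets that all had the higher signal in the embryonic cell. Probe set 1456219_at had a signal of 4350 in the embryonic cell and 2547 in the newborn cell, 1.71-fold higher at E12.5 and above background in both. The log2 ratio of this probe set, -0.77, stood beside the -0.74 of its neighbour Zic2.

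The other Zic5 probe sets were above background in the embryonic cell only, as 10.2% of probe sets were. Probe set 1425666_at had a signal of 573 in the embryonic cell and 151 in the newborn cell, and 1456140_at 787 and 84.0. With the P0 signals raised to the limit 1425666_at was at least 1.64-fold higher at E12.5 and 1456140_at at least 2.26-fold. The deposited signals alone differed by 3.80-fold and 9.36-fold, but both P0 signals lie in the range of the background genes, at 43.3% and 24.1% of the limit. With the limit at the 95th percentile, 90.4 in the P0 array, the log2 ratio of 1456140_at was -3.12 and that of 1425666_at -1.93. Whether Zic5 differed beyond 4-fold therefore depended on the probe set and the limit, while the higher signal lay in the embryonic cell in all 3.

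Zic4, the neighbour of Zic1, was below background in both cells by both of its probe sets. Probe set 1421539_at had a signal of 118 in the embryonic cell and 101 in the newborn cell. Probe set 1456417_at had 77.6 and 135. The probe sets lay on opposite sides, and no fold is given for signals below the limit. With the lower limit at the 95th percentile (112 and 90.4), the P0 signals of both and the E12.5 signal of 1421539_at were above it. A transcript can be lost when the RNA of a single cell is copied, so Zic4 was not detected rather than absent.

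The genes around the pairs were read as well, by position. Around Zic2 and Zic5, the lncRNA gene 2610035F20Rik had signals of 58.4 and 3.22 and was below background in both cells. Pcca, a mitochondrial propionyl-CoA carboxylase subunit gene and the next protein-coding gene past Zic2, had 3312 in the embryonic cell and 2036 in the newborn cell in 1 of its probe sets, a log2 ratio of -0.70, and was below background in the other. Gm5089, a lncRNA gene on the far side of Zic5, was below background in the embryonic cell (7.66) and at 4074 in the newborn cell, at least 15.8-fold higher there. Around Zic1 and Zic4, the nearest 3 genes on each side had no probe set of 1 gene symbol.

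The Zic ratios were then set beside those of all probe sets. Over the 4866 probe sets that exceeded the limits of both arrays, log2 ratios centred on a median of -0.0014 with an SD of 1.44. The 4 Zic probe sets among them had log2 ratios from -0.98 to 0.68, all within 1 such SD of the median. A lower log2 ratio was found in 21.3% of those probe sets for Zic1 1423477_at, 27.6% for Zic2, 26.7% for Zic5 1456219_at and 69.1% for Zic1 1439627_at.

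**Figure D2:**
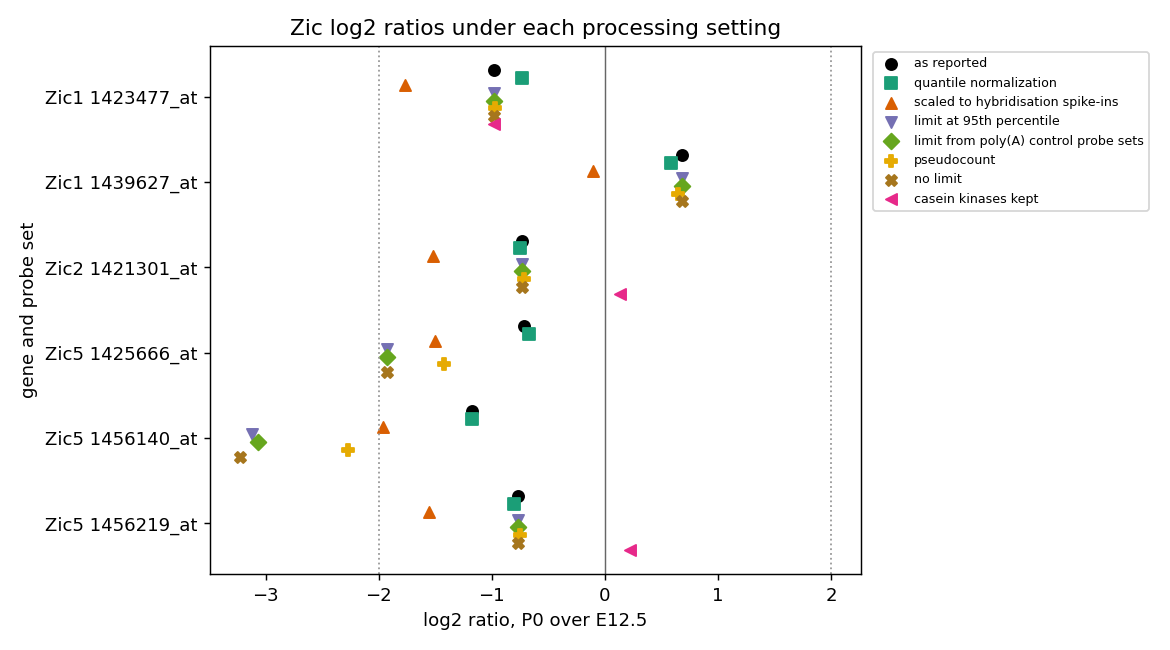
The log2 ratio, P0 (newborn) over E12.5 (embryonic) (horizontal axis) of the 6 Zic probe sets above background in at least 1 cell (vertical axis), with 1 symbol for each processing setting and dotted lines at a 4-fold difference. Zic1 1423477_at and the Zic5 probe sets 1425666_at and 1456140_at lie left of 0 under each setting that gave a value, and Zic1 1439627_at turns to -0.10 with spike-in scaling. Zic2 and Zic5 1456219_at lie at 0.13 and 0.23 with casein kinases kept among the background genes. In that setting their newborn signals are below the limit and raised to it, so these points show no change of direction.

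Other transcription factors of the optic cup were read the same way, and 10 passed a 4-fold difference in 1 direction or the other. Of 22 measured, 13 were above background in the embryonic cell, 10 in the newborn cell and 8 in both. When any probe set of a gene counts, 14 and 11 were, with Nr2f2 at 502 in the embryonic cell by 1416158_at. A 4-fold excess was found for 7 in the embryonic cell and for 3 in the newborn cell, against 7.30% and 9.24% of all named genes. The 15 above background in at least 1 cell had a median log2 ratio of -1.15, against 0.02 over the 7274 such genes. The orphan nuclear receptor gene Nr2f1 (at least 47.0-fold), the homeobox genes Meis1 (at least 22.3-fold) and Vax2 (at least 16.7-fold), and Pax6, the eye master regulator (15.4-fold), were higher in the embryonic cell. Sox9, a progenitor and glial factor (at least 35.4-fold), and the ventral homeobox gene Vax1 (at least 19.2-fold) were higher in the newborn cell. With casein kinases kept among the background genes, 0 were past 4-fold in the embryonic cell and 1 in the newborn cell. No further probe set of Vax1 or Sox9 reached 4-fold with signals raised to the limit.

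The optic cup factors with a ratio most like that of the Zic genes were the eye field homeobox genes Six3, Rax and Six6. They were the closest 3, among the 8 above background in both cells, to Zic1 1423477_at, to Zic2 and to Zic5 1456219_at. Six3 had 6099 in the embryonic cell and 3322 in the newborn cell, a log2 ratio of -0.88, Rax 949 and 494, a log2 ratio of -0.94, and Six6 12089 and 5451, a log2 ratio of -1.15. The second Zic1 probe set was closest to Sox2 (0.18, which spike-in scaling turned to -0.61), then to Tbx2 (1.73) and Six3. With 2 cells this likeness rests on 1 ratio per gene, and a second Six3 probe set had 39.7 and 658, the opposite direction.

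**Figure D3:**
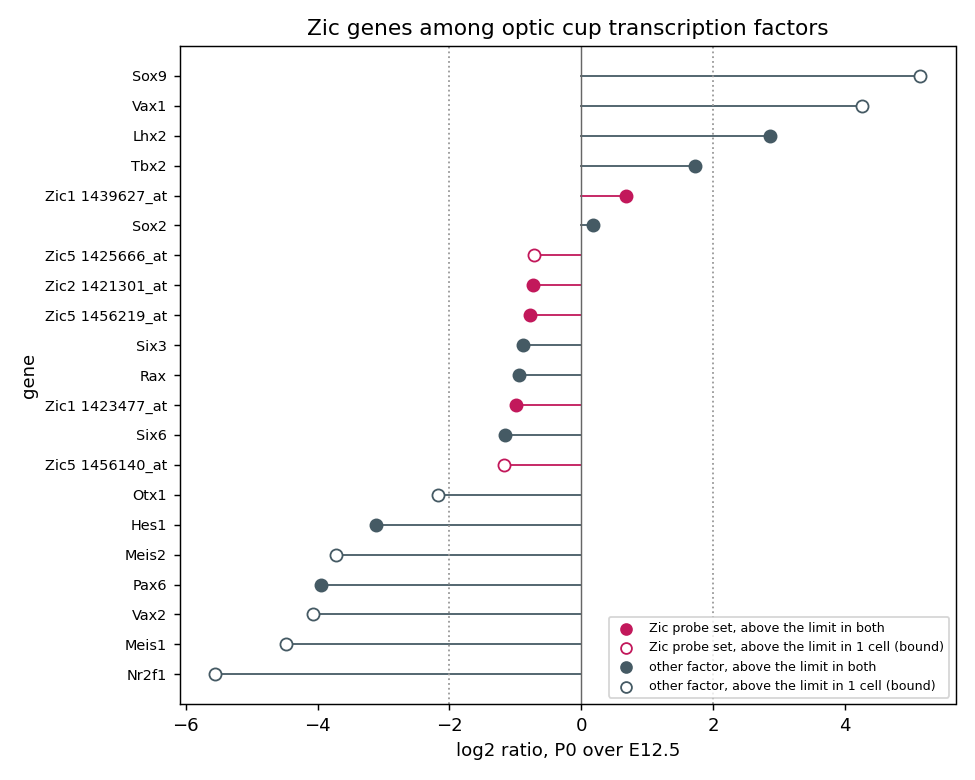
The log2 ratio, P0 (newborn) over E12.5 (embryonic) (horizontal axis), signals raised to the limit, of the 6 Zic probe sets above background and the 15 optic cup factors above it in at least 1 cell (vertical axis), with filled points for genes above background in both cells, open points for lower bounds and dotted lines at a 4-fold difference. The Zic probe sets lie between -1.17 and 0.68, inside the range of the other factors, which runs from -5.56 (Nr2f1) to 5.15 (Sox9).

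Zic proteins share their finger domain with the Gli and Glis proteins, and 6 genes of that wider family were measured. Of these, 3 were above background in the embryonic cell and 2 in the newborn cell, against 30.3% and 28.4% of all named genes, and 1 was in both. Gli3, mostly a repressor at the end of hedgehog signalling, had 2750 in the embryonic cell and 1799 in the newborn cell, a log2 ratio of -0.61, while its probe set 1455154_at had 3349 and 19.1 and passed 4-fold on the embryonic side. Gli2, mostly an activator, was above background in the embryonic cell only (550 against 55.5). Glis2, a Kruppel-like zinc finger gene of kidney and cilia, was at least 5.74-fold higher in the newborn cell (151 and 1477), the 1 member past 4-fold by the probe set chosen for each gene. Of all named genes, 9.24% were 4-fold higher in the newborn cell. At a 95th percentile limit, 2 further members passed 4-fold, both higher in the embryonic cell. Scaling to the spike-ins took Glis2 to a log2 ratio of 1.74, under 4-fold, and its second probe set was below background in both cells. Gli1, a direct hedgehog target, had 55.4 and 21.3 and was below background in both cells.

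Genes of proteins reported to bind, modify or import Zic proteins were read next. Of 15, 13 were above background in the embryonic cell and 8 in the newborn cell, against 30.3% and 28.4% of all named genes. A 4-fold excess was found for 5 in the embryonic cell and 0 in the newborn cell, against 7.30% and 9.24% of all genes. The 13 above background in the embryonic cell had a median log2 ratio of -1.28. With the limit at the 95th percentile, 13 were above it in each cell, and 6 were 4-fold higher in the embryonic cell. Dhx9, an RNA helicase, was higher in the embryonic cell by 15.4-fold, the DNA repair enzyme gene Parp1 by at least 11.2-fold, the importin gene Kpna1 by at least 10.1-fold, Mbd3 of the NuRD chromatin complex by at least 9.70-fold and Xrcc5, a Ku subunit, by 5.32-fold. Chd4, the NuRD remodeller, was the next at 3.86-fold, with 8300 and 2152.

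The rest of the partners differed less. Prkdc, the DNA-dependent kinase that modifies Zic2, had 3698 in the embryonic cell and 2197 in the newborn cell, a log2 ratio of -0.75. Ctnnb1, the Wnt effector beta-catenin, had 21287 and 19377, but its other 2 probe sets gave log2 ratios of 0.83 and -2.27. Xrcc6, the other Ku subunit, had 540 and 1395, the higher signal in the newborn cell. Sufu, an inhibitor of Gli proteins, and Mdfic, a relative of the Zic inhibitor Mdfi, were below background in both cells. Spike-in scaling moved the median over genes detected in both cells to -0.78 on the log2 scale. It raised the count at least 4-fold higher in the embryonic cell from 5 to 7, quantile normalisation left it at 5, and keeping the casein kinases took it to 0. When any probe set of a gene counts, it was 6. Most partner genes are general nuclear genes that many cells express.

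**Figure D4:**
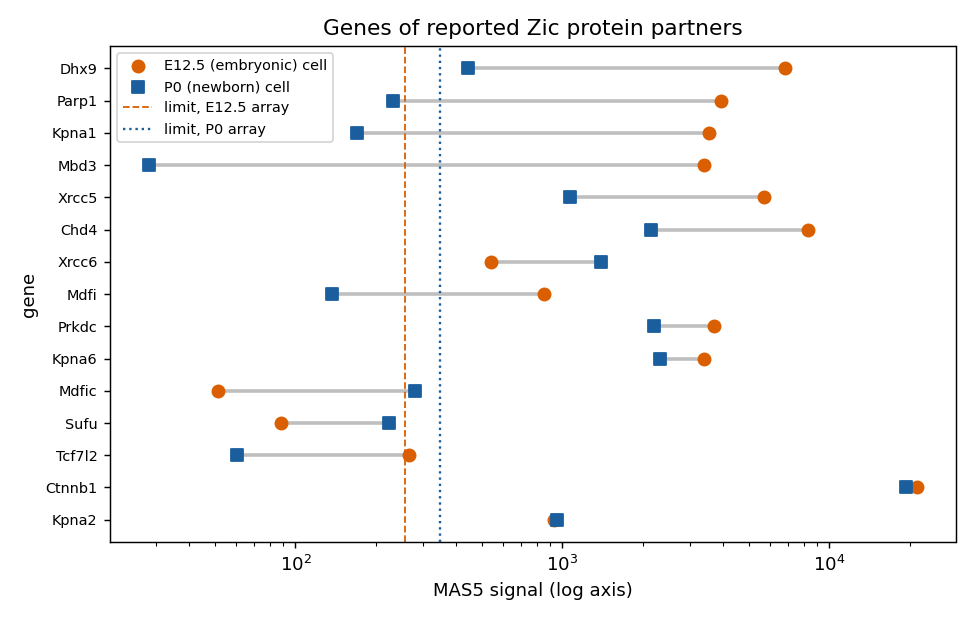
MAS5 signal (horizontal log axis) of 15 genes of reported Zic partners (vertical axis, by size of log2 ratio) in the embryonic cell (circles) and the newborn cell (squares), 1 array each, with the background limit of each array as a line. The top 5, Dhx9 to Xrcc5, are those at least 4-fold higher in the embryonic cell, and Mdfic and Sufu lie below the limit of the respective array in both cells.

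Genes reported as Zic targets elsewhere were not above background. Of 10, 0 were above it in either cell, against 30.3% of all named genes in the embryonic cell and 28.4% in the newborn cell. The 10 included Ephb1, the guidance receptor of ganglion cell axons that stay uncrossed (6.07 and 102), the serotonin transporter gene Slc6a4 (29.8 and 40.4), Apoe (152 and 86.2) and the proneural gene Atoh1 (3.15 and 6.41). With the limit at the 95th percentile, 1 was above it in the embryonic cell and 2 in the newborn cell.

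Because Zic genes are also active in neural crest and eye mesenchyme, markers of those cells were counted. Of 15, 0 were above background in the embryonic cell and 2 in the newborn cell, against 30.3% and 28.4% of all named genes. The 2 were Pdgfra (63.0 and 3088) and Col1a2 (2653 in the newborn cell). Pdgfra had 8978 in the newborn cell by its probe set 1421917_at and 5.23 by 1438946_at. The Col1a2 probe sets 1446326_at and 1450857_a_at had 6.08 and 89.9 there, below background. The summed signal of the list was 1118 in the embryonic cell and 6558 in the newborn cell, or 1214 and 12452 with the highest probe set of each gene in each cell, and Foxc1, Foxc2, Twist1, Prrx1 and Sox10 were below the limit in both. With the limit at the 95th percentile, 4 and 5 were above it. In the embryonic cell, the highest signal among the chosen probe sets of the list was 188. The part of such RNA in the Zic signals of either cell was not tested.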

How the data were processed

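The study's expression arrays were Affymetrix mouse chips. Per the labels' protocols, cells were papain-dissociated, picked by capillary, and their cDNA, primed at the poly(A) tail, was amplified over 35 PCR cycles. The authors deposited MAS5 intensities, linear and with 1 value for each probe set of an array, per the series' design text. MAS5 scales each array on its own, and the mean without 2% at each end was 500.0 in both. Software version, settings and genome build: not given in the sources used here.

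Symbols of 34958 probe sets with 1 gene were updated by gene identifier for 34754; 932 had several genes and 9211 were not listed. Each gene was read by 1 probe set, the one whose log2 signals averaged highest across the 2 cells, so another that was above the limit in 1 cell can be passed over. Counts from any probe set of a gene were added after seeing the data. The limit was the 99th percentile of 177 probe sets of receptor, keratin-associated, milk, urinary and egg coat families. A difference was called at 4-fold with signals raised to the limit, and a dimmer cell below it makes the fold a lower bound. The call was tested on simulated data. Genes named were all Zic probe sets and members of written lists, up to 6 per list by size of log2 ratio, with others named after their values were seen. The members, lists and alternatives were chosen with earlier results of these data known. The Bacillus control limit and the neighbouring genes were added after seeing the data. Tools were Python 3.11.15, NumPy 2.4.6, pandas 2.3.3 and matplotlib 3.10.9.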

Additional observations from a re-analysis of the deposited data

How the results depend on the processing

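No paired analysis was possible because each age is 1 cell. At a 95th percentile limit, Zic5 1425666_at had a log2 ratio of -1.93 and 1456140_at of -3.12; with Bacillus control probe sets, an alternative chosen after seeing the data, -1.93 and -3.07; with no limit, -1.93 and -3.23; with a pseudocount of 100, 1456140_at had -2.27. In each of these 4 settings 1 Zic probe set passed 4-fold, in place of 0. At the 95th percentile and with Bacillus controls, 7 Zic probe sets exceeded the newborn limit, in place of 4. With casein kinases kept among the background genes, which most cells express, the limits were 3170 and 5088, the counts above them 3 in the embryonic cell and 1 in the newborn cell, and the log2 ratios of Zic2 0.13 and of Zic5 1456219_at 0.23. The newborn signals of Zic2 (2787) and Zic5 1456219_at (2547) were below that limit and were raised to it. Their ratios in this setting thus show no change of direction. The mean over probe sets gave Zic5 -1.84. Quantile normalisation moved no Zic log2 ratio by more than the SD of 0.83 between probe sets. Spike-in scaling shifts every log2 ratio alike, with the median of shared genes at -0.78, so its size tests no single gene. It took Zic1 1423477_at to -1.77, Zic2 to -1.52, Zic5 1456219_at to -1.56 and Zic1 1439627_at to -0.10, each moved by less than that SD. The scaled ratios of Zic2 and Zic5 1456219_at were larger in size than the SD, and that of Zic1 1423477_at already was before scaling.

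The counts of genes 4-fold higher were 1682 in the newborn cell and 1328 in the embryonic cell. They became 1107 and 2024 with spike-in scaling, 24 and 6 with casein kinases, 3924 and 4115 with no limit and 863 and 700 with the mean over probe sets. That of the embryonic cell became 2013 at the 95th percentile and 2004 with Bacillus controls. The planned limit from bacterial controls outside the spike-in mixes was not run, since 3 such probe sets remained.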
